A study of Mus musculus with 12 samples.

Results

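Control LT-HSC (long-term haematopoietic stem cells) were compared with control MPP (multipotent progenitors) from mouse fetal liver at E13.5, across all genes. The 6 control libraries, 3 per cell type, were chosen by title from the 12 of a study of Setdb1, the gene of a histone methyltransferase. Of the 24054 genes in each table, 12834 passed the filter on low counts and were tested. Both cell types came from cells with the LSK markers of early blood cells (lineage negative, Sca-1 and Kit positive) and were split by the surface proteins CD150 and CD48: LT-HSC were CD150+CD48- and MPP were CD150-CD48+. LT-HSC control 1 was Setdb1 +/p without the vav-cre transgene, and LT-HSC controls 2 and 3 were Setdb1 +/p with it. MPP controls 1 and 2 were Setdb1 +/p without vav-cre, and MPP control 3 was Setdb1 +/p with it. Every control therefore carried 1 copy of the p allele, which the labels do not define, and vav-cre drives Cre recombinase in blood cells. The mutants, used only in the last comparison of the text, were Setdb1 p/p;vav-cre. Nothing in the labels ties the libraries of a group to separate fetuses. The p-values therefore cover the spread among these samples alone, part of which may be technical.

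Haematopoietic stem cells renew themselves and give rise to every blood lineage over a lifetime, and in midgestation the fetal liver is the organ in which they multiply. MPP keep several lineage options but renew for a short time only, and the CD48+ fraction of LSK cells holds cells that already lean towards lymphoid or myeloid fates. Transcription factors such as MECOM, HLF and the MEIS and HOX proteins are known to maintain stem cells, while genes of single lineages become detectable in progenitors before commitment.

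The 6 libraries were of like depth, with 12265049 to 14113198 expected counts. Pearson's r of log2 CPM (CPM being counts scaled to the same library size) was 0.972 to 0.975 among LT-HSC libraries, 0.983 to 0.986 among MPP libraries and 0.905 to 0.928 between the cell types, and the first principal component, with 73.3% of the variance, separated the cell types. LT-HSC libraries were made from 500 to 1000 sorted cells and MPP libraries from 20000, so cell number and cell type cannot be told apart. LT-HSC controls 2 and 3 stood apart in the sum of 30 hepatoblast genes, those of liver parenchyma. In LT-HSC controls 1, 2 and 3 it was 1496, 3082 and 3227 CPM. MPP controls 1, 2 and 3 had 883, 775 and 1117 CPM. Apoe, which other cells also make, gave 635, 614 and 724 CPM of the LT-HSC sums and 214, 296 and 264 CPM of the MPP sums. Within each cell type the libraries with vav-cre had the highest sums, so liver RNA and the transgene cannot be told apart. In LT-HSC control 1 alone against the 3 MPP libraries, a comparison chosen after seeing the data, 3603 genes were called. There the spread comes from the MPP libraries alone, and the single LT-HSC library is assumed to vary like them, so its counts below are a description. LT-HSC control 2 also had more Mpo RNA (816 CPM) than LT-HSC controls 1 and 3 (55.1 and 237 CPM). Setdb1 itself had 86.5, 75.5 and 110.4 CPM in LT-HSC controls 1 to 3, against 144, 96.4 and 90.1 CPM in MPP controls 1 to 3, and did not differ (log2 fold change -0.28, SE 0.188, adjusted p = 0.263, edgeR's quasi-likelihood test).

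In all, 4942 genes (38.5% of those tested) were called, which here means an adjusted p under 0.05 in that test. Of these, 2628 (20.5%) were higher and 2314 (18%) were lower in LT-HSC. Changes of at least 2-fold were more often upward, with 1236 genes higher (9.63%) and 624 lower (4.86%). The genes called higher were of lower level, with a median of 20 CPM against 64.8 CPM for those called lower and 35.6 CPM for all tested. All fold changes below are log2 of LT-HSC over MPP, with n = 3 libraries each, and the median over all tested genes was 0.01. In bulk samples, fewer cells of a type and less RNA per cell cannot be told apart.

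The RNA of the 2 sorted proteins followed the gates. Slamf1, which encodes CD150, had 39.4, 35.7 and 38.1 CPM in LT-HSC and 2.46, 1.68 and 1.36 CPM in MPP. Cd48 had 11.2, 17.5 and 15.8 CPM in LT-HSC and 266, 223 and 209 CPM in MPP. Since the cells were chosen by these proteins, their RNA checks the labels and is no finding. Of the markers that all LSK cells carry, Kit (1047 ± 61.4 CPM in LT-HSC, 924 ± 90.6 CPM in MPP, SD), Ly6a, the gene of Sca-1 (39.3 ± 5.55 and 31.5 ± 4.36 CPM), and Ptprc, the gene of the pan-leukocyte protein CD45 (243 ± 14.6 and 293 ± 37.4 CPM), were not called. Cd34 and Flt3, which rise as stem cells become progenitors in the adult mouse, were not used in the gate. Cd34 had 439, 486 and 422 CPM in LT-HSC against 1046, 1067 and 1098 CPM in MPP (log2 fold change -1.25, SE 0.081, adjusted p = 4.51e-06). Flt3, the receptor for the FLT3 ligand, had 136, 142 and 153 CPM in LT-HSC against 414, 484 and 503 CPM in MPP (-1.70, SE 0.0982, adjusted p = 2.52e-06). Both were lower in every LT-HSC library than in any MPP library, yet neither was close to 0 in LT-HSC.

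**Figure D1:**
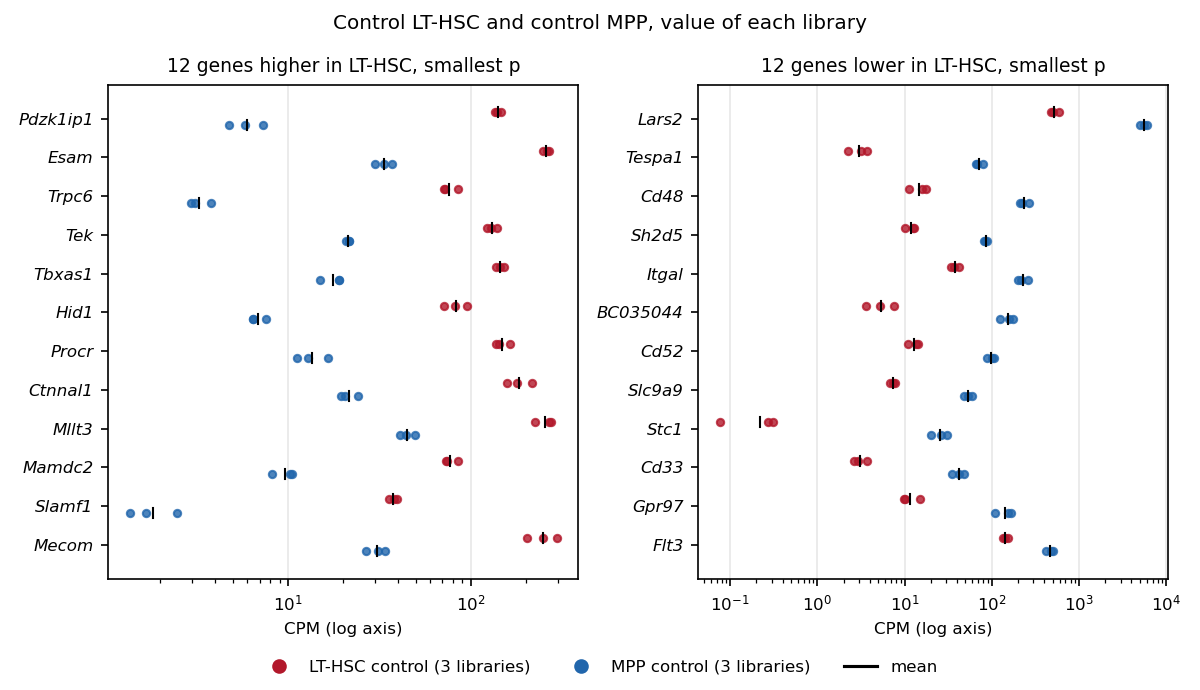
CPM on a log axis in each of the 3 LT-HSC (red, upper row of each gene) and 3 MPP (blue, lower row) control libraries, with the mean as a bar, for the 12 genes with the smallest p in each direction. Every gene shown is free of overlap between the cell types, from Pdzk1ip1 at 136 to 146 CPM in LT-HSC and 4.76 to 7.31 CPM in MPP, to Flt3 at 136 to 153 CPM in LT-HSC and 414 to 503 CPM in MPP.

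Among the 12 genes with the smallest p that were higher in LT-HSC were several of the cell surface. Pdzk1ip1, a small membrane protein gene of stem cells, had 146, 136 and 139 CPM in LT-HSC against 4.76, 7.31 and 5.85 CPM in MPP (log2 fold change 4.55, SE 0.15, adjusted p = 1.96e-07). Esam, an adhesion molecule shared with endothelium, had 267, 249 and 262 CPM in LT-HSC against 33.4, 29.8 and 37.2 CPM in MPP. Trpc6, a cation channel, had 71, 85.2 and 71.9 CPM in LT-HSC against 3.09, 2.94 and 3.81 CPM in MPP. The libraries of each cell type were close together and far from those of the other. Also among the 12 were Tek, the receptor for angiopoietins (2.61), Procr, the endothelial protein C receptor (3.45), Tbxas1, thromboxane synthase (3.04), Ctnnal1, alpha-catulin (3.10), Hid1 (3.60) and Mamdc2 (3.0). Of genes with at least 10 CPM in the higher cell type, no overlap and a known name, outside the lists of other liver cells, those with the largest folds upward were S100a16, a calcium-binding protein gene, at 27.2, 15.9 and 14.5 CPM in LT-HSC against 0.872, 0 and 0.169 CPM in MPP, then Lhcgr, the luteinizing hormone receptor (10.8 ± 1.84 CPM in LT-HSC, 0.271 ± 0.196 CPM in MPP), Clip3, Ces2b, Vwf and Cyp26b1, an enzyme that breaks down retinoic acid. Those 6 genes lay between 4.66 and 5.72 in log2 fold change.

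Among the 12 genes with the smallest p that were lower in LT-HSC were several of leukocytes. Tespa1, a T cell signalling gene, had 3.13, 2.27 and 3.69 CPM in LT-HSC against 78.7, 68.1 and 65.6 CPM in MPP (log2 fold change -4.54, SE 0.186, adjusted p = 4.96e-07). Itgal, the alpha chain of the integrin LFA-1, had 34.2, 41.7 and 36.9 CPM in LT-HSC against 260.3, 216 and 201 CPM in MPP. Cd52 (-2.92), Cd33 (-3.76) and Gpr97 (-3.62), surface proteins of leukocytes, and Sh2d5 (-2.84), Slc9a9, a sodium and proton exchanger gene (-2.88), and BC035044 (-4.82) were lower in the same way. Stc1, which encodes the secreted glycoprotein stanniocalcin, had 9 counts over the 3 LT-HSC libraries and a mean of 25.7 ± 5.48 CPM in MPP. Cdh17, a cadherin gene, had 0 counts in all 3 LT-HSC libraries, against 19.7, 10.2 and 15.1 CPM in MPP: it was at least 197-fold lower in LT-HSC, taking 3 counts over the group as the floor. At the head of the list stood Lars2, the mitochondrial leucyl-tRNA synthetase, whose values are given beside ribosomal RNA further on.

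**Figure D2:**
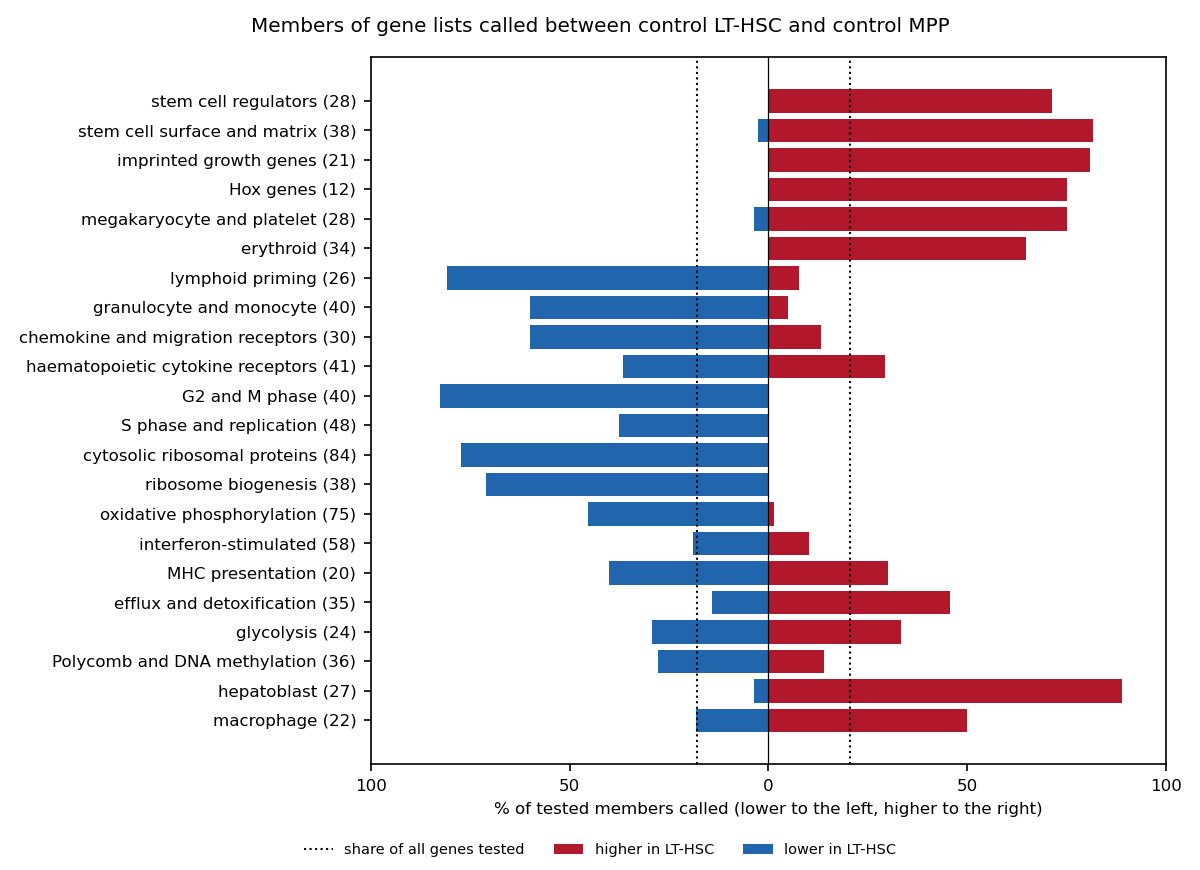
Share of the tested members of 22 gene lists (number tested in parentheses) called higher in LT-HSC (red, to the right) or lower in LT-HSC (blue, to the left); dotted lines mark the shares over all tested genes, 20.5% and 18%. The hepatoblast list extends furthest to the right (88.9%). Stem cell, imprinted, Hox, megakaryocyte, erythroid and macrophage lists also extend to the right. Lymphoid, granulocyte and monocyte, G2 and M phase and ribosomal protein lists extend to the left.

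Transcription factors known to maintain stem cells were higher in LT-HSC as a group. Of 30 stem cell regulators, 28 were tested, 20 were higher, none was lower and the median log2 fold change was 0.98. Mecom, a zinc finger regulator on which stem cells depend, had 296, 248 and 204 CPM in LT-HSC against 30.9, 26.7 and 33.9 CPM in MPP (3.03, SE 0.15, adjusted p = 1.18e-06). Mllt3, a chromatin reader of the super elongation complex, had 267, 224 and 275 CPM in LT-HSC against 49.8, 40.8 and 44 CPM in MPP (2.51). Hoxb5 had 16.6, 13.9 and 14 CPM in LT-HSC against 0.714, 0.672 and 0.847 CPM in MPP (4.30). None of these 3 overlapped between the cell types. Myct1 (2.15), Gata2 (1.86), Prdm16 (1.73), Meis1 (1.18) and Hlf (0.96) were also higher, the last at 386 ± 10.4 CPM in LT-HSC and 198 ± 33.7 CPM in MPP. Of the factors that act throughout the early blood system, Runx1 (109 ± 5.77 CPM in LT-HSC, 108 ± 6.2 CPM in MPP) and Etv6 (273 ± 11.3 and 242 ± 9.21 CPM) were not called. The proto-oncogenes of the MYC family moved in opposite directions. Mycn had 836, 749 and 721 CPM in LT-HSC against 291, 379 and 482 CPM in MPP (1.0, SE 0.156, adjusted p = 0.000856), while Myc had 264, 216 and 245 CPM in LT-HSC against 541, 623 and 536 CPM in MPP (-1.23, SE 0.101, adjusted p = 1.84e-05). Per length, Mycn stood at 554 TPM and Myc at 189 TPM in LT-HSC, whereas in MPP Mycn stood at 248 TPM and Myc at 399 TPM.

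Surface and matrix genes of stem cells were higher in LT-HSC too: of 39 listed, 38 were tested, 31 were higher, 1 was lower and the median log2 fold change was 1.5. Besides those above, Tgm2, a protein cross-linking enzyme (189.6 ± 23.5 CPM in LT-HSC, 41.3 ± 3.91 CPM in MPP), Tie1 (221 ± 19.9 and 49.6 ± 8.86 CPM), Robo4 (103 ± 10.4 and 27.8 ± 4.69 CPM) and Fgd5 (143 ± 9.39 and 53.7 ± 5.75 CPM) were higher. The member that was lower, Lifr, the receptor for leukaemia inhibitory factor, was low, at 1.96 ± 1.08 CPM in LT-HSC and 5.36 ± 0.904 CPM in MPP, and was not called without MPP control 1 or 2. Genes of the basement membrane, the sheet of collagen IV and laminin beneath epithelium and endothelium, formed a list that was chosen after their values were seen, so its count is a description. Of 25 such genes, 13 were tested, 7 were higher and 1 was lower. Col4a1 had 229, 243 and 244 CPM in LT-HSC against 27, 28.2 and 43 CPM in MPP (2.86). Col4a2, its neighbour and partner chain, had 179, 158 and 128 CPM in LT-HSC against 19.7, 20.8 and 28.6 CPM in MPP (2.75). Col18a1 had 211 ± 17.2 CPM in LT-HSC and 63 ± 6.59 CPM in MPP, and all 3 collagen genes were free of overlap. Fbln1, encoding fibulin-1, was lower (7.78 ± 1.3 CPM in LT-HSC, 19.9 ± 4.55 CPM in MPP).

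Megakaryocyte and platelet genes were higher in LT-HSC. Of 29 listed, 28 were tested, 21 were higher, 1 was lower and the median log2 fold change was 1.65. Vwf, the platelet adhesion protein von Willebrand factor, had 232, 152 and 126 CPM in LT-HSC against 4.12, 5.55 and 10 CPM in MPP (4.70, SE 0.32, adjusted p = 6.21e-06). Pf4, a chemokine of platelet granules, had 166, 271 and 173 CPM in LT-HSC against 5.23, 28.2 and 12.9 CPM in MPP (3.73, SE 0.451, adjusted p = 0.000193). Itga2b, the alpha chain of the platelet fibrinogen receptor, had 90.6, 75 and 53.8 CPM in LT-HSC against 7.77, 13.3 and 9.57 CPM in MPP (2.84). LT-HSC were above MPP in every library for all 3 genes, although Vwf and Pf4 varied within each cell type. F2rl2, a thrombin receptor gene (3.09), F10, coagulation factor X (3.01), Rab27b, needed for granule release (2.95), Treml1 (2.89) and Selp, encoding P-selectin (1.87), were also higher. Of the markers of platelets, Gp9, a platelet glycoprotein gene, was higher (49, 54 and 37.1 CPM in LT-HSC against 14, 13.1 and 16.4 CPM in MPP). Ppbp and Tubb1 were not called: Ppbp had 4.9, 31.6 and 1 CPM in LT-HSC against 0.476, 8.24 and 0.339 CPM in MPP, and Tubb1 had 3.15 ± 1.28 CPM in LT-HSC and 1.3 ± 0.978 CPM in MPP. Plek, encoding the platelet and leukocyte protein pleckstrin, was lower (62.7 ± 18.2 CPM in LT-HSC, 111 ± 24.6 CPM in MPP), but was not called without LT-HSC control 1 or MPP control 1.

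Erythroid genes were higher as well. Of 36 listed, 34 were tested, 22 were higher, none was lower and the median log2 fold change was 0.81. With the hepatoblast sum as a covariate, described further on, 6 were called higher and the median was 0.61. Klf1, a regulator of red cell genes, had 161, 164 and 198 CPM in LT-HSC against 81.6, 92.3 and 95.9 CPM in MPP (0.95, SE 0.108, adjusted p = 0.000132). Gata1, the regulator of red cell and megakaryocyte genes, had 107, 111 and 114 CPM in LT-HSC against 77.1, 60.8 and 52.9 CPM in MPP (0.80). Epor, the erythropoietin receptor, had 105, 87.6 and 99.9 CPM in LT-HSC against 42, 52.1 and 41.9 CPM in MPP (1.1). These regulators and the receptor did not overlap between the cell types, whereas the globins did. Hba-a2 had 722, 2169 and 1154 CPM in LT-HSC against 526, 283 and 1167 CPM in MPP and was not called, and Hbb-y, an embryonic globin, had 2.59, 36.9 and 194 CPM in LT-HSC against 2.3, 12.4 and 1.02 CPM in MPP. Hbb-b2 and Hbb-bt had identical values in every library, which is how reads that fit near-identical copies are shared, so the level of each is uncertain. The summed level of the erythroid list was 6329, 9270 and 7335 CPM in LT-HSC and 4282, 3457 and 5286 CPM in MPP; the part of free red cell RNA in it was not tested.

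Because GATA factors regulate both lineages, the promoters of 2 megakaryocyte genes are shown. RefSeq promoters on GRCm38.p6, from 250 bases before to 50 after a gene's start, were searched on both strands for AGATAA, a form of the GATA motif. It was present in 5 of 24 promoters of megakaryocyte genes (20.8%) and 7 of 27 of erythroid genes (25.9%), against 893 of 13102 promoters of all tested genes (6.82%). A match is a description of letters and not a site of binding. The promoter of Pf4 lies at chr5:90772185-90772484 (plus strand) and that of F2rl2 at chr13:95696670-95696969 (plus strand), each given 5′ to 3′ with the motif in capitals.
Pf4: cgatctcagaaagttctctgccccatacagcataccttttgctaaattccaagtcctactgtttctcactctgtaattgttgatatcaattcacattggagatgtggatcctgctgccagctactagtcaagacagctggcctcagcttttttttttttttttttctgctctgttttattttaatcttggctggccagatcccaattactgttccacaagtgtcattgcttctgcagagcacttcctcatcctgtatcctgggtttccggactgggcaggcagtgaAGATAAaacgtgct
F2rl2: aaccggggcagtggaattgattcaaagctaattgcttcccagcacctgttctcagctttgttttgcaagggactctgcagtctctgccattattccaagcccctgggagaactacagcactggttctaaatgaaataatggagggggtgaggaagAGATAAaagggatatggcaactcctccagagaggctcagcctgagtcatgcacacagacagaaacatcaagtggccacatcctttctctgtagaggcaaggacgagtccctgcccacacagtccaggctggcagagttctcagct
Pf4 holds the motif just downstream of its start, in the last 50 bases of the window, and F2rl2 holds it upstream.

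**Figure D3:**
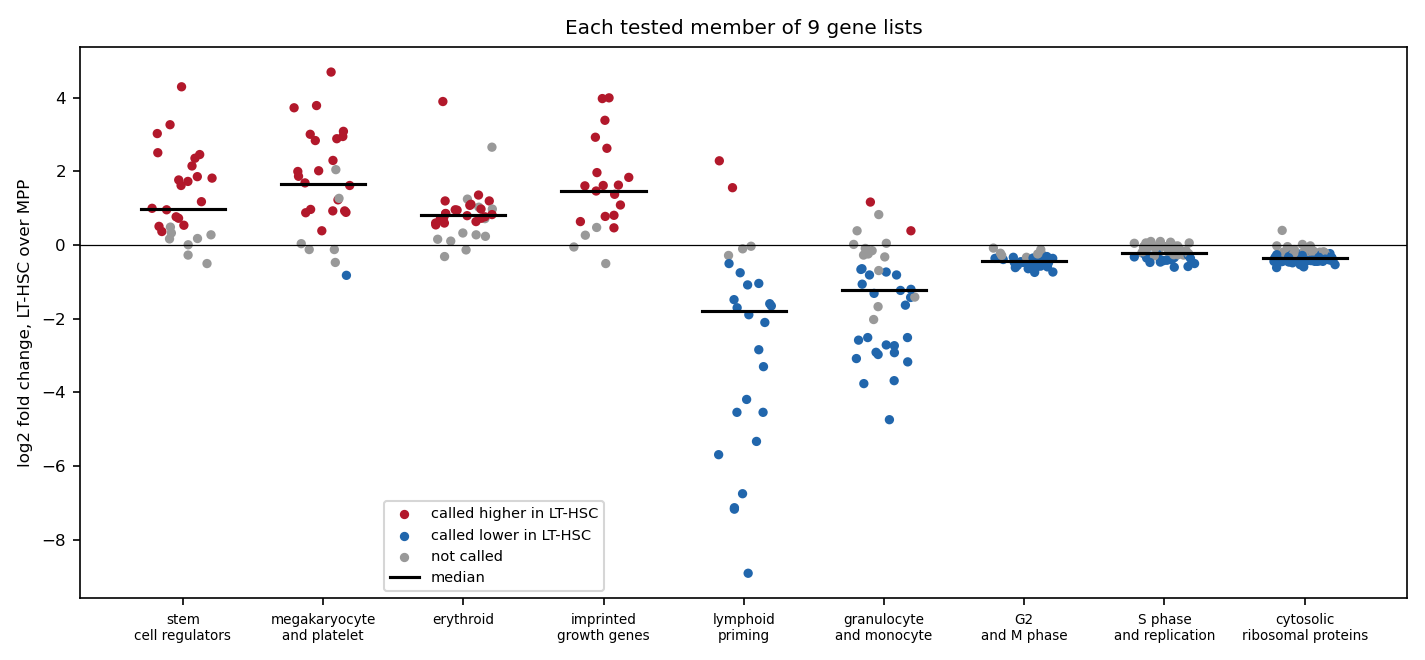
Log2 fold change of LT-HSC over MPP for each tested member of 9 gene lists; points are genes, red if called higher in LT-HSC, blue if called lower in LT-HSC, grey if not called, and the bar is the median. Lymphoid genes have the widest downward spread (median -1.79), while cell cycle and ribosomal protein genes lie in a narrow band under 0 (medians -0.43, -0.20 and -0.34).

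Lymphoid genes were lower in LT-HSC, many of them close to 0. Of 32 listed, 26 were tested, 21 were lower, 2 were higher and the median log2 fold change was -1.79. Rag1, a subunit of the recombinase that cuts antigen receptor genes, had 0.204, 0 and 0.0769 CPM in LT-HSC against 20.9, 15.1 and 10.3 CPM in MPP. Rag2, its partner, had 0.34, 0.53 and 0.0769 CPM in LT-HSC against 45.8, 34.4 and 25.2 CPM in MPP. Il7r, the interleukin-7 receptor, had 0.0681, 0.454 and 0.0769 CPM in LT-HSC against 37.5, 31.2 and 17.5 CPM in MPP. These 3 genes had only 4, 13 and 8 counts over the LT-HSC libraries, so their folds are imprecise: the log2 fold change of Rag1 was -7.17, and -8.32 to -5.28 over the alternatives, with -8.32 without LT-HSC control 1. Ccr9, a thymus homing receptor, had 1.09, 3.26 and 0.0769 CPM in LT-HSC against 93.3, 63 and 73.1 CPM in MPP (-5.69), and Cd7 had 0 counts in LT-HSC against 4.66 ± 1.25 CPM in MPP. The regulator genes Satb1 (-2.10), Id2 (-1.89), Notch1 (-1.59) and Ikzf1 (-1.08) were lower too, with means of 33.3 to 135 CPM in LT-HSC. Of the genes that mark later B and T cells, Pax5 was at 0 in all 3 LT-HSC libraries and at most 0.254 CPM in MPP. Cd3e was above 0 in 1 of the 6 libraries. Cd79a was not near 0 in MPP, with 0.953, 0.984 and 0.461 CPM in LT-HSC against 11.1, 6.56 and 6.35 CPM in MPP. The 2 members higher in LT-HSC were Ltb, encoding lymphotoxin beta (224, 242 and 228 CPM in LT-HSC against 37.4, 37.7 and 66.9 CPM in MPP), and the transcription factor gene Gata3 (31.9, 26.8 and 33.5 CPM against 9.36, 10.7 and 11.4 CPM).

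Granulocyte and monocyte genes were lower in LT-HSC for the most part. All 40 listed were tested, 24 were lower, 2 were higher and the median log2 fold change was -1.21. Ccr2, a monocyte chemokine receptor, had 0.885, 7.19 and 5.84 CPM in LT-HSC against 118, 154 and 96.4 CPM in MPP (-4.74, SE 0.463, adjusted p = 5.26e-05). Cebpa, a regulator of granulocyte fate, had 0.34, 0.606 and 1.54 CPM in LT-HSC against 7.06, 12.8 and 11.9 CPM in MPP (-3.68). Plac8 had 35.2, 50 and 42.2 CPM in LT-HSC against 365, 379 and 251 CPM in MPP (-2.97). Primary granule genes depended on the LT-HSC library. Mpo, myeloperoxidase, had 55.1, 816 and 237 CPM in LT-HSC against 2389, 2315 and 1938 CPM in MPP (-2.58, SE 0.693, adjusted p = 0.0149), and Elane, neutrophil elastase, had 0.749, 152 and 51.5 CPM in LT-HSC against 76.5, 84.6 and 84.6 CPM in MPP and was not called. LT-HSC control 2 was the highest LT-HSC library for both. Spi1, encoding the transcription factor PU.1, did not differ (127 ± 3.19 CPM in LT-HSC, 149.9 ± 23.4 CPM in MPP). The members higher in LT-HSC were Gfi1, a transcriptional repressor gene (45 ± 15.3 CPM in LT-HSC, 20 ± 7.13 CPM in MPP), and Csf2rb2 (35.2 ± 3.24 and 26.8 ± 2.35 CPM). Without LT-HSC control 1, MPP control 2 or MPP control 3, 1 of them was called.

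Mast cell and basophil genes, another set of lineage genes, were few: 9 of 16 were tested. In LT-HSC 4 were lower (44.4%, against 18% of all genes) and Gata2, which stem cells share, was higher. The median log2 fold change was -1.21, and -1.67 to 0.02 over the alternatives. With the hepatoblast covariate 0 were called lower. The basophil protease gene Prss34 had 0, 0.303 and 0 CPM in LT-HSC against 4.44, 7.73 and 2.63 CPM in MPP. Receptors for chemokines and adhesion were lower in LT-HSC too, 18 of 30 tested, with 4 higher and a median of -0.76. Among them were Ptger2, a prostaglandin E receptor gene (0.408, 2.12 and 1.15 CPM in LT-HSC against 26.9, 31.2 and 28.2 CPM in MPP), Itgb7 (15.1 ± 0.596 CPM in LT-HSC, 49.4 ± 10 CPM in MPP) and Cxcr4, the receptor that holds stem cells in the niche (12.9, 15.1 and 19.7 CPM in LT-HSC against 33.9, 32.2 and 28.2 CPM in MPP). The 4 higher members were Robo4, Itga5 (121 ± 9.15 CPM in LT-HSC, 57 ± 8.02 CPM in MPP), S1pr1 and S1pr4, of which 2 were called without MPP control 2. Haematopoietic cytokine receptors were split, with 12 of 41 higher (29.3%) and 15 lower (36.6%), against 20.5% and 18% of all genes. Higher in LT-HSC were Il11ra1, the interleukin-11 receptor (120.2 ± 1.54 CPM in LT-HSC, 44.4 ± 6.33 CPM in MPP), Il27ra (31.8 ± 4.21 and 12.3 ± 0.937 CPM) and Ghr, the growth hormone receptor (9.96 ± 1.19 and 2.26 ± 0.0994 CPM), beside Tek and Epor. Lower were Il2rb, with 1 count over the LT-HSC libraries and 2.42 ± 0.525 CPM in MPP, Il6ra (9.83 ± 4.6 CPM in LT-HSC, 35.9 ± 6.26 CPM in MPP), Il1r1 (3.97 ± 1.11 and 15.2 ± 1.02 CPM), and Csf1r, the macrophage colony-stimulating factor receptor (121 ± 32.6 and 299.5 ± 36.3 CPM). Without LT-HSC control 1, only 7 of the receptors were called higher.

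RUNX factors regulate many genes of the lymphoid and myeloid lineages, so 2 promoters of genes lower in LT-HSC are given with the RUNX motif TGTGGT, searched on both strands. It was present in 127 of 611 promoters (20.8%) of the genes called at least 2-fold lower. Those at least 2-fold higher had it in 154 of 1221 (12.6%), and all tested genes in 1717 of 13102 (13.1%). Without the 2-fold limit, genes called lower had it in 325 of 2293 promoters (14.2%) and genes called higher in 370 of 2739. The share over all genes called lower was thus close to that of all tested genes. In the lymphoid list 8 of 30 promoters held the motif (26.7%), and in the granulocyte and monocyte list 10 of 40 (25%). The erythroid and megakaryocyte lists, higher in LT-HSC, had it in 5 of 27 (18.5%) and 4 of 24 (16.7%). Runx1 RNA itself did not differ, as given above. The promoters are those of Cd48 at chr1:171681742-171682041 (plus strand) and Rag1 at chr2:101649483-101649782 (minus strand), 5′ to 3′ with the motif in capitals.
Cd48: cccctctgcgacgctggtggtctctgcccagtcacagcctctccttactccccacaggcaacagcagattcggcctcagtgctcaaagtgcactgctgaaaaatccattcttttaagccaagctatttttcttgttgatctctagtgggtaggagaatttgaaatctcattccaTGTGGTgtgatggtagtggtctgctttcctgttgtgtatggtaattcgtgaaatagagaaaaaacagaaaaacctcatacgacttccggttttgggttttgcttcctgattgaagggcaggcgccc
Rag1: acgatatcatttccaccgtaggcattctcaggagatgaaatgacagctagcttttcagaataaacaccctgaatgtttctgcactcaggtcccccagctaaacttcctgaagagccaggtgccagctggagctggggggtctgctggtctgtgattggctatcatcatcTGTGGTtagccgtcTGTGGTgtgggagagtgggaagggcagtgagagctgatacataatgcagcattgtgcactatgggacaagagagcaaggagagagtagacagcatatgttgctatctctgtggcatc
Cd48 holds 1 copy and Rag1 holds 2, all on the strand shown and upstream of the start.

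Genes of cell division were lower in LT-HSC by a small and even amount. All 40 G2 and M phase genes were tested, 33 were lower, none was higher and the median log2 fold change was -0.43. Cdk1, the kinase that drives mitosis, had 192, 221 and 207 CPM in LT-HSC against 329, 297 and 295 CPM in MPP (-0.57, SE 0.0891, adjusted p = 0.000871). Top2a, the topoisomerase that untangles chromosomes, had 424, 455 and 415 CPM in LT-HSC against 818, 698 and 642 CPM in MPP (-0.74, SE 0.0992, adjusted p = 0.000361). Bub1b, a spindle checkpoint kinase gene, had 218, 217 and 231 CPM in LT-HSC against 407, 350.4 and 349 CPM in MPP (-0.73). No LT-HSC library reached the lowest MPP library for these genes. Mki67, the proliferation marker, stood at 337 ± 29 CPM in LT-HSC and 458 ± 36.6 CPM in MPP (-0.44), so it was far from 0 in LT-HSC. Of 48 S phase and replication genes, 18 were lower (37.5%, against 18% of all genes) and none was higher, with a median of -0.20. Mcm10 (103, 109 and 104 CPM in LT-HSC against 176, 160.5 and 141 CPM in MPP) and Pola1, a DNA polymerase alpha subunit gene (99.6, 104 and 96.3 CPM against 159, 153 and 137 CPM), were among them. Without LT-HSC control 1, 6 of the S phase genes were called, and with LT-HSC control 1 alone 9 were. With the hepatoblast covariate, 6 G2 and M phase genes and 0 S phase genes were called, while the medians were -0.63 and -0.34.

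Regulators of entry into the cycle went both ways. Cdk6, a D cyclin kinase, had 18.5, 11.9 and 14.2 CPM in LT-HSC against 43.4, 54.6 and 41.9 CPM in MPP (log2 fold change -1.65, SE 0.185, adjusted p = 0.000124), and Ccnd1 was lower (37.9 ± 7.21 CPM in LT-HSC, 72.4 ± 12.2 CPM in MPP). Ccnd3 was higher (341 ± 19.8 and 239 ± 45.1 CPM), and Ccnd2 was not called. Among 15 tested inhibitors of the cycle, 5 were higher (33.3%) and 2 were lower (13.3%), against 20.5% and 18% of all genes. Without MPP control 2, 1 was lower. Cdkn1c, which encodes the inhibitor p57 and holds stem cells out of cycle in the adult mouse, had 46.9, 48 and 65.9 CPM in LT-HSC against 13.6, 19.7 and 28.6 CPM in MPP (1.38, SE 0.245, adjusted p = 0.00186). Cdkn1a and Cdkn1b, the genes of p21 and p27, were low and were not called (9.26 ± 2.97 and 11.7 ± 1.57 CPM in LT-HSC, 9.74 ± 1.68 and 10.4 ± 1.77 CPM in MPP). Txnip, a thioredoxin-binding protein gene, was higher (592 ± 54 CPM in LT-HSC, 370.1 ± 11.8 CPM in MPP).

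The promoters of G2 and M phase genes share short sequences, shown here for Cdk1, Bub1b and Top2a and for Plk1, a mitotic kinase gene. RefSeq promoters were searched on both strands for CCAAT, the box bound by NF-Y, and TTTGAA, the core of the cell cycle homology region (CHR) bound by the DREAM and B-MYB complexes; neither motif contains the other. CCAAT was present in 26 of 34 promoters of the 33 G2 and M phase genes that matched (76.5%), against 4976 of 13102 of all tested genes (38%), and TTTGAA in 25 of 34 (73.5%), against 1630 of 13102 (12.4%). TTCCCGC, a form of the E2F motif, was present in none of these 34 and in 16 of 46 promoters of S phase genes (34.8%), against 8.12% of all. These shares are a description, with no test. The promoters lie at chr10:69352863-69353162 (Cdk1, minus strand), chr7:122159185-122159484 (Plk1, plus strand), chr2:118597961-118598260 (Bub1b, plus strand) and chr11:99024140-99024439 (Top2a, minus strand) of GRCm38.p6, given 5′ to 3′ with both motifs, on either strand, in capitals.
Cdk1: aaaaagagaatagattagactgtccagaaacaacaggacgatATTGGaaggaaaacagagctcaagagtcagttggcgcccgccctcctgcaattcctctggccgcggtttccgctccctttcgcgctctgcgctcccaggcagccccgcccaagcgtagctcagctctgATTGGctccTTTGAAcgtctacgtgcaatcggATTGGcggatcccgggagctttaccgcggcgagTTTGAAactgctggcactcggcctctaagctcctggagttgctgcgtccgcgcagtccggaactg
Plk1: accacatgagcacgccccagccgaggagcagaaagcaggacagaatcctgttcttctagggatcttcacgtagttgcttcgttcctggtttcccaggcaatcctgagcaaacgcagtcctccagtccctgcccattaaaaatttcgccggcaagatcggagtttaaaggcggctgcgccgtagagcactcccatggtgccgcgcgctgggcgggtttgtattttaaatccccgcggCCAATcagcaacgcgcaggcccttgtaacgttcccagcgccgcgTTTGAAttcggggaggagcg
Bub1b: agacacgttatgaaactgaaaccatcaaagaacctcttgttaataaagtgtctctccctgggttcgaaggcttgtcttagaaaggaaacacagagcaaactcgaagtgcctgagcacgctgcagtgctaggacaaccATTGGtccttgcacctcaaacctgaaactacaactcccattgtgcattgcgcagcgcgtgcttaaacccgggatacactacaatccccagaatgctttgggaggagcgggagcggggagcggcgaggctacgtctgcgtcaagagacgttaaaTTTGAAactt
Top2a: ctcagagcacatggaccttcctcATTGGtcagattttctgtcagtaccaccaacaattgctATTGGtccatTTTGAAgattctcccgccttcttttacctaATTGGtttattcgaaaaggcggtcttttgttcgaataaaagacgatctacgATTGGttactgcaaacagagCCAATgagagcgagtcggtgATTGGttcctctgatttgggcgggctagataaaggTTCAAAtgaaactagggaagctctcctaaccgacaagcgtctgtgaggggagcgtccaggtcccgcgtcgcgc
Plk1 RNA was lower as well, with 186, 189.5 and 175 CPM in LT-HSC against 246, 227 and 249.7 CPM in MPP (-0.39).

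Ribosomal protein genes were lower in LT-HSC. Of 86 cytosolic ribosomal protein genes, 84 were tested, 65 were lower, none was higher and the median log2 fold change was -0.34. Rps12 had 155, 166 and 181 CPM in LT-HSC against 259, 241 and 266 CPM in MPP (-0.61, SE 0.0898, adjusted p = 0.000622). Rplp1 had 308, 308 and 326 CPM in LT-HSC against 447, 439.7 and 471 CPM in MPP (-0.53). Genes that build the ribosome were lower as well, 27 of 38 lower and none higher (median -0.39), led by Heatr1 (-0.83), a factor for transcription of ribosomal RNA, and Npm1, nucleophosmin (867, 887 and 924 CPM in LT-HSC against 1610, 1336 and 1272 CPM in MPP). Mitochondrial ribosomal proteins had 10 of 76 lower (13.2%, against 18% of all genes), 1 higher and a median of -0.16, and oxidative phosphorylation genes had 34 of 75 lower, 1 higher and a median of -0.24. Ndufa4, a subunit of the respiratory chain, had 205, 213 and 215 CPM in LT-HSC against 407, 356 and 383 CPM in MPP (-0.86), and Cycs, cytochrome c, had 219, 238 and 224 CPM in LT-HSC against 400.5, 360.2 and 340.0 CPM in MPP (-0.69). Single libraries moved these counts: without LT-HSC control 1, 13 oxidative phosphorylation genes were called lower, and without LT-HSC control 2, 17 ribosome biogenesis genes were. Without LT-HSC control 1, LT-HSC control 2, MPP control 2 or MPP control 3, 3, 4, 4 and 5 mitochondrial ribosomal proteins were lower. With LT-HSC control 1 alone against MPP, 36 ribosomal protein genes and 13 biogenesis genes were called lower, and with the hepatoblast covariate 4 and 1 were, with medians of -0.43 and -0.35.

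Rows that match ribosomal RNA differed in the same direction. Rn45s, the ribosomal RNA precursor, had 4206, 3887 and 4417 CPM in LT-HSC against 6914, 8995 and 9147 CPM in MPP. Mir6236 had 1.43, 1.74 and 3 CPM in LT-HSC against 29.8, 28.7 and 36.3 CPM in MPP, and Lars2 had 472, 504 and 586 CPM in LT-HSC against 6020, 4976 and 5600 CPM in MPP (log2 fold change -3.41, SE 0.109, adjusted p = 1.96e-07). Lars2 and Mir6236 hold sequence that resembles ribosomal RNA, and the part of such reads in the Lars2 difference was not tested.

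**Figure D4:**
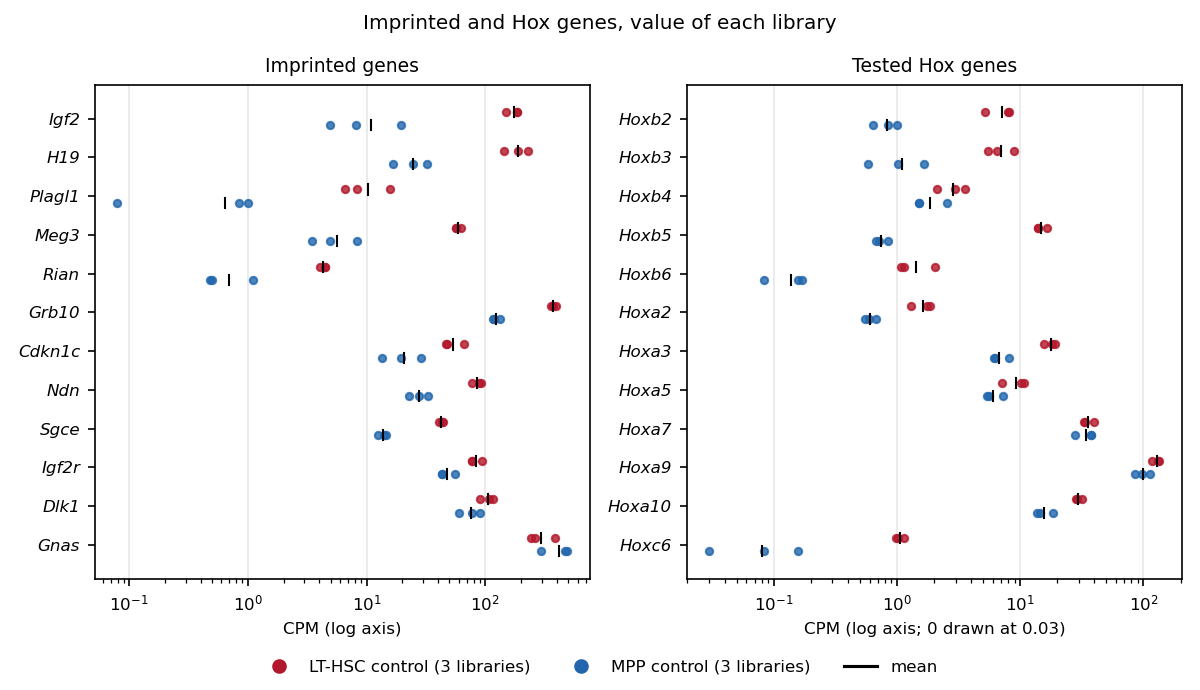
CPM on a log axis in each of the 3 LT-HSC (red, upper row of each gene) and 3 MPP (blue, lower row) control libraries, with the mean as a bar, for 12 imprinted genes and the 12 tested Hox genes. Igf2, H19 and Meg3 do not overlap between the cell types, Dlk1 and Gnas do, and among Hox genes Hoxb5 has the largest fold (4.30) and Hoxa7 overlaps.

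Imprinted genes, which are expressed from 1 parental copy and largely control fetal growth, were higher in LT-HSC. Of 28 listed, 21 were tested, 17 were higher, none was lower and the median log2 fold change was 1.47. Igf2, insulin-like growth factor 2, had 149.5, 185 and 187 CPM in LT-HSC against 8.17, 4.96 and 19.5 CPM in MPP (4.0, SE 0.368, adjusted p = 3.61e-05). H19, the noncoding RNA beside it, had 145, 228 and 189 CPM in LT-HSC against 24.7, 16.6 and 32.6 CPM in MPP (2.93). Meg3, a maternally expressed noncoding RNA, had 56.4, 57.2 and 62.4 CPM in LT-HSC against 3.49, 4.96 and 8.39 CPM in MPP (3.39). No library of one cell type reached those of the other for these 3 genes. Plagl1, a zinc finger regulator of the imprinted network, had 15.7, 6.59 and 8.38 CPM in LT-HSC against 0.0793, 1.01 and 0.847 CPM in MPP (3.98), and Grb10, an inhibitor of insulin signalling, had 397, 358 and 369 CPM in LT-HSC against 133, 119 and 117 CPM in MPP (1.61). Ndn (1.62), Sgce (1.63), Gab1 (1.09) and Igf2r, the receptor that degrades IGF2 (0.81), were higher too. Liver parenchyma also makes Igf2 and H19, and the ratio of Igf2 to Alb, the albumin gene of hepatoblasts, was 3.12, 0.745 and 0.732 in LT-HSC controls 1 to 3 against 0.302, 1.26 and 0.378 in MPP controls 1 to 3. The ratio of H19 to Alb was 3.03, 0.914 and 0.741 in LT-HSC and 0.915, 4.19 and 0.632 in MPP. Both ratios overlapped between the cell types, and the part of liver RNA in these differences was not tested. With the hepatoblast covariate 10 imprinted genes were called higher, with a median of 1.14.

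Hox genes, which set position in the embryo and self-renewal in blood, were mostly below the filter: 12 of the 39 in the tables were tested, 9 were higher in LT-HSC, none was lower and the median log2 fold change was 1.40. With the hepatoblast covariate 3 were called, with a median of 1.34. The HoxB members had the larger differences. Hoxb2 had 7.9, 5.22 and 8.15 CPM in LT-HSC against 0.635, 1.01 and 0.847 CPM in MPP (3.08), and Hoxb3 had 6.54, 5.45 and 8.92 CPM against 1.67, 0.588 and 1.02 CPM (2.66). Hoxb4, known for expanding stem cells when overexpressed, was low and was not called (2.87 ± 0.717 CPM in LT-HSC, 1.85 ± 0.596 CPM in MPP). Hoxa9, the highest per length, stood at 74.2 TPM in LT-HSC and 51.9 TPM in MPP and was called with a small difference (0.37, SE 0.114, adjusted p = 0.0289). Hoxa3 (1.38) and Hoxa10 (0.93) were higher, and Hoxa7 was not called (35.3 ± 3.68 CPM in LT-HSC, 34.4 ± 5.87 CPM in MPP).

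Genes that set fetal against adult stem cells were divided. Of 13 listed, 11 were tested, 4 were higher and 6 were lower in LT-HSC. Lin28b, the RNA-binding protein gene of fetal blood, had 32.9, 36.9 and 30.8 CPM in LT-HSC against 54.8, 48.2 and 44.7 CPM in MPP (log2 fold change -0.56, SE 0.129, adjusted p = 0.0076). Hmga2, a chromatin protein gene downstream of it, had 170.3, 160.3 and 178 CPM in LT-HSC against 316, 289 and 262 CPM in MPP (-0.77). The Igf2bp family of RNA-binding protein genes split. Igf2bp3 (92.7 ± 6 CPM in LT-HSC, 224 ± 23.7 CPM in MPP) and Igf2bp1 (86 ± 7.42 and 135 ± 15 CPM) were lower. Igf2bp2 was higher (209.8 ± 14.7 and 119.6 ± 10.7 CPM). The other 3 higher members, Igf2, H19 and Dlk1, are imprinted.

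Of signalling pathways, Wnt and TGF-beta had shares of called genes near those of all genes, which were 20.5% higher and 18% lower. In the Notch pathway, 4 of 21 tested members were higher (19%) and 8 lower (38.1%), the latter above the share of all genes. The ligand gene Dll4 had 11.8, 14.2 and 10.5 CPM in LT-HSC against 0.397, 0.168 and 1.02 CPM in MPP (log2 fold change 4.51, SE 0.427, adjusted p = 4.28e-05), while the receptor gene Notch1 had 74.8, 72.5 and 82.1 CPM in LT-HSC against 227, 248 and 215 CPM in MPP (-1.59). Leaving out LT-HSC control 1 or 2 or MPP control 3 left 5 lower members in the pathway, and leaving out MPP control 2 left 3. In the Wnt pathway, 8 of 29 were higher (27.6%) and 7 lower (24.1%), or 4 lower without LT-HSC control 1, MPP control 2 or MPP control 3. The secreted antagonist gene Dkk1 had 11.8, 11.5 and 9.54 CPM in LT-HSC against 1.74, 0.42 and 1.61 CPM in MPP (3.11), and the receptor genes Fzd4 (2.70), Fzd3 (1.40) and Fzd6 (0.95) were higher, while Tcf7, a lymphoid effector, was lower (-2.84). In the TGF-beta and BMP pathway, 6 of 25 were higher (24%) and 4 lower (16%), or 7 lower without LT-HSC control 3. Tgfbr3, the co-receptor betaglycan, had 118, 121 and 96.1 CPM in LT-HSC against 32.9, 27.2 and 32.9 CPM in MPP (1.85), and the ligand gene Tgfb1 was lower (101, 91.4 and 107 CPM against 159, 203 and 225 CPM).

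Metabolic genes went both ways. Of 24 glycolysis genes, 8 were higher (33.3%) and 7 lower (29.2%), against 20.5% and 18% of all genes, with a median of -0.07. Ldhb, the heart form of lactate dehydrogenase, had 141, 139.7 and 133 CPM in LT-HSC against 58, 57.3 and 58.5 CPM in MPP (log2 fold change 1.25, SE 0.0839, adjusted p = 6.01e-06), and Pdk2, which restrains the entry of pyruvate into the mitochondrion, had 71.4, 52.7 and 68.1 CPM against 19.8, 23.8 and 25.8 CPM (1.47). Among the lower members were Hk2, hexokinase 2 (-1.05), and Gapdh (943, 1056 and 1007 CPM in LT-HSC against 1564, 1265 and 1381 CPM in MPP). Efflux and detoxification genes were higher in 16 of 35 (45.7%) and lower in 5 (14.3%), against 20.5% and 18% of all genes, with a median of 0.30. With the hepatoblast covariate 5 were called higher and 2 lower. Gstm1, a glutathione transferase gene, had 152, 164 and 169.7 CPM in LT-HSC against 77, 62.5 and 77.1 CPM in MPP (1.16). Of the pumps behind the side population of stem cells, Abcg2 was higher (82.8 ± 4.88 CPM in LT-HSC, 56.2 ± 6.69 CPM in MPP), and Abcb1b was lower (1.77, 2.35 and 2.54 CPM against 15.7, 14.9 and 11.4 CPM).

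Genes of Polycomb complexes and DNA methylation had 5 of 36 higher (13.9%) and 10 lower (27.8%), against 20.5% and 18% of all genes. Suz12 (-0.87), Eed (-0.53) and Ezh2 (-0.39), the core of Polycomb repressive complex 2, were all lower, and Ezh2 had 107, 105 and 107 CPM in LT-HSC against 132, 141 and 143 CPM in MPP. The DNA methyltransferase genes parted, Dnmt3a being higher (371, 353 and 349.8 CPM in LT-HSC against 287, 258 and 279 CPM in MPP) and Dnmt3b lower (176, 151 and 247 CPM against 269, 331 and 391 CPM). Trim28, the co-repressor that recruits SETDB1, was lower (157, 163 and 241 CPM in LT-HSC against 289, 387 and 414 CPM in MPP, log2 fold change -0.96, SE 0.178, adjusted p = 0.00238). Without LT-HSC control 1 or MPP control 2, 6 members were lower.

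Antigen presentation genes split by class. H2-K1 and H2-D1, class I heavy chains, had 723 ± 131 and 723 ± 97.7 CPM in LT-HSC against 289 ± 23 and 339.8 ± 35.1 CPM in MPP (log2 fold changes 1.32 and 1.09). They are near copies whose reads could be divided between them. Nlrc5, the activator of class I genes, had 40.2, 15.5 and 21.6 CPM in LT-HSC against 10.5, 12.4 and 7.12 CPM in MPP (1.36). All 6 higher members of the 20 tested were class I genes or Nlrc5, and class II genes were among the 8 lower: Cd74, the class II invariant chain, had 5.92, 17 and 22 CPM in LT-HSC against 60.8, 38.2 and 73.1 CPM in MPP (-1.94), and H2-DMa had 21.9 ± 3.59 CPM in LT-HSC and 76.2 ± 11.3 CPM in MPP. Interferon-stimulated genes as a whole had 6 of 58 higher (10.3%) and 11 lower (19%), against 20.5% and 18% of all genes, and LT-HSC control 1 was high in several, such as Ifi44 (40.5, 11.3 and 12.5 CPM in LT-HSC against 3.73, 4.71 and 2.03 CPM in MPP). Leaving out LT-HSC control 2, LT-HSC control 3 or MPP control 1 left 7 lower, and leaving out MPP control 2 left 5. Leaving out single libraries gave 4 to 9 higher. With the hepatoblast covariate 22 were called higher and 0 lower, so the shares of this list depended on the fit.

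**Figure D5:**
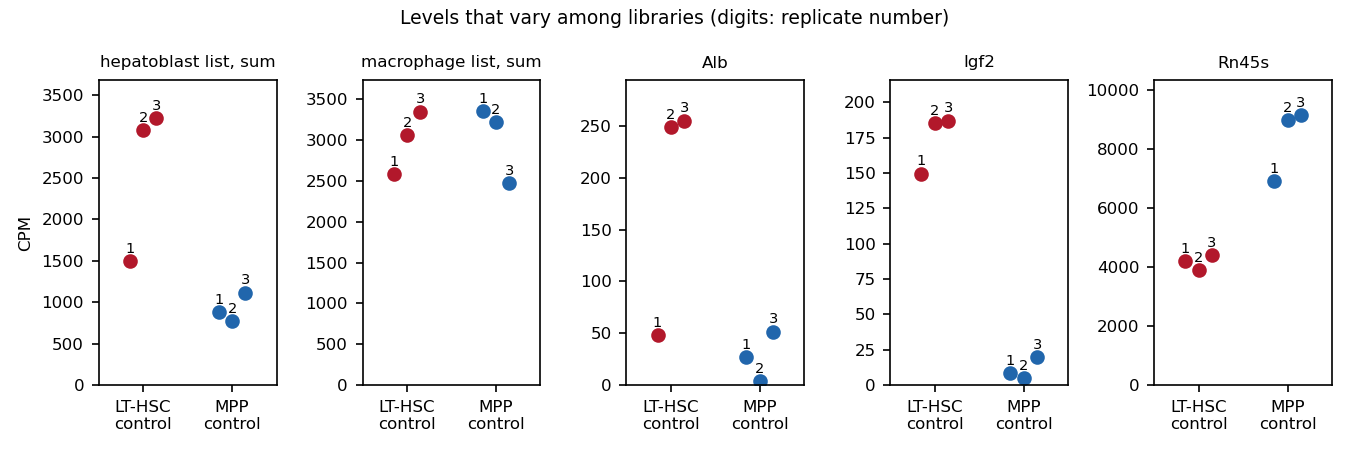
CPM in each control library (digits are replicate numbers, LT-HSC in red at left, MPP in blue at right) of the summed hepatoblast list, the summed macrophage list, Alb, Igf2 and Rn45s; each axis starts at 0. Alb in LT-HSC control 1 is within the range of MPP, while Igf2 is above MPP in all 3 LT-HSC libraries.

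Genes of hepatoblasts, the liver parenchyma outside these gates, differed between the cell types. Of 30 hepatoblast genes, 27 were tested, 24 were higher, Hnf4a was lower and the median log2 fold change was 2.79. Afp, alpha-fetoprotein, had 95.7, 427 and 425 CPM in LT-HSC against 50.6, 9.5 and 94 CPM in MPP, and Alb had 47.9, 249 and 255 CPM against 27, 3.95 and 51.6 CPM. Of the defining hepatoblast genes, Alb, Afp, Apoa1 and Ttr were above 0 in every library and Serpina1a was at 0 in MPP control 2. The call depended on the libraries: 5 members were called without MPP control 1, and 3 with LT-HSC control 1 alone. Hnf4a, a regulator of liver genes, went the other way (12.8, 13.9 and 15.5 CPM in LT-HSC against 52.7, 40 and 53 CPM in MPP). Apoe, which macrophages and other cells also make, had 635, 614 and 724 CPM in LT-HSC against 214, 296 and 264 CPM in MPP (1.35). Fitting the hepatoblast sum as a covariate left 1327 genes called, while 4853 of the 4942 kept the sign of their fold change. The sum is itself higher in LT-HSC and includes Apoe, so the covariate also takes up part of the difference between the cell types. Within each cell type it was also highest in the libraries with vav-cre. The part of liver RNA in other results was not tested.

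Macrophage genes had 11 of 22 tested members higher and 4 lower, with sums of 2579, 3062 and 3345 CPM in LT-HSC against 3351, 3217 and 2469 CPM in MPP. Of the defining macrophage genes, C1qc (100.4, 143 and 155 CPM in LT-HSC against 92.2, 68.8 and 72.4 CPM in MPP), Cd5l and Vcam1 did not overlap and were above MPP. Emr1, C1qa and C1qb overlapped, Emr1 at 64.7, 88.8 and 94.5 CPM in LT-HSC against 96.4, 71.3 and 60 CPM in MPP. Lyz2 and Csf1r, which monocytes share, were lower. With the hepatoblast covariate 0 macrophage genes were called higher. Without MPP control 2, 6 macrophage genes were called higher, and with LT-HSC control 1 alone 1 was. Endothelial genes had 12 of 20 higher, and 1 lower, which was not called without MPP control 1. Of the higher ones, Esam, Tek, Tie1 and Erg are stem cell genes too. Kdr, which defines endothelium, had 12.9, 7.27 and 7.23 CPM in LT-HSC against 0.714, 1.18 and 0.424 CPM in MPP, and Cdh5 had 8.03, 8.93 and 12.1 CPM against 7.3, 5.72 and 4.24 CPM. The other defining genes overlapped: Stab2 had 14, 8.25 and 12.2 CPM in LT-HSC against 10.2, 8.99 and 7.03 CPM in MPP, Plvap had 5.72, 4.32 and 9.77 CPM against 5.16, 8.49 and 6.78 CPM, and Lyve1 was at most 1.77 CPM. Of 18 stromal genes, 9 were tested, 5 were higher and 1 lower. Of the defining stromal genes, Col1a1, Col3a1 and Dcn were at most 0.749 CPM in any library. Pdgfra was low but called higher, at 1.63, 1.21 and 1.46 CPM in LT-HSC against 0.159, 0.336 and 0 CPM in MPP. The other higher members were Cxcl12, Col1a2, Reln and Col5a1. The lower member was Pdgfrb, at 1.64 ± 1.14 CPM in LT-HSC and 47.1 ± 6.75 CPM in MPP. The part of these cells in the results was not tested.

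The same difference between LT-HSC and MPP was set beside that in Setdb1 mutants, in a fit of all 12 libraries that tests the change of the cell type effect with genotype. Setdb1 RNA was at 66.5, 66.5 and 80.8 CPM in mutant LT-HSC against 83.9, 73.5 and 108 CPM in control LT-HSC, and at 87, 117 and 99.1 CPM in mutant MPP against 140.2, 95.3 and 87.9 CPM in control MPP, so its levels overlapped between the genotypes in both cell types. Of 13249 genes tested, 50 (0.377%) differed in that effect, and 1637 had an unadjusted p under 0.05. Of the 4940 genes called between control LT-HSC and MPP that could be tested, 42 differed, and 4480 had the same sign in mutants. Monocyte genes were among those that differed. Lyz2, lysozyme, had 469 ± 41.6 CPM in mutant LT-HSC and 263 ± 22.2 CPM in mutant MPP, against 422 ± 53.6 CPM in control LT-HSC and 995 ± 257 CPM in control MPP. Irf8, a monocyte and dendritic cell regulator gene, had 61.5 ± 7.79 CPM in mutant LT-HSC and 37.6 ± 5.51 CPM in mutant MPP, against 52.2 ± 6.83 and 109 ± 17.6 CPM in the controls. In both genes the mean of mutant MPP stood below that of control MPP. Sdpr, a caveola gene of the megakaryocyte list, kept its direction with a larger gap, at 22.3 ± 12.6 CPM in mutant LT-HSC and 0.179 ± 0.184 CPM in mutant MPP, against 23.1 ± 5.23 and 5.71 ± 0.979 CPM in the controls. The count of 50 changed with single libraries left out. Dropping LT-HSC control 1, 2 or 3 gave 15, 11 and 10 genes, and dropping MPP control 1, 2 or 3 gave 7, 5 and 14. Dropping LT-HSC mutant 1 or 3 gave 17 and 885 genes, dropping MPP mutant 2 or 3 gave 1 and 4, and dropping LT-HSC mutant 2 or MPP mutant 1 gave 42.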

How the data were processed

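Each library has a deposited gene table of expected counts and TPM, per the file headers. The submitters' processing notes name STAR, RSEM and the mm10 build, without versions. The authors' low-input library kit keeps no strand, per the labels' protocols, so reads of a gene and its antisense partner cannot be told apart. Expected counts were rounded and tested with edgeR 4.0.16 in R 4.3.3 (TMM scaling, filterByExpr with a minimum count of 10 and a minimum total of 15, quasi-likelihood test, Benjamini-Hochberg adjustment over all genes tested). CPM use the scaled library size; TPM, given per length, are the authors' deposited values. The test was run first on simulated data. The text names the 12 genes with the smallest p and the 6 with the largest fold in each direction (called, at least 2-fold, no overlap, at least 10 CPM in the higher group), up to 6 called members per list, the sort markers and Setdb1; some of these genes are not reported here. Any other gene given with values was picked after seeing them. The comparison, the lists and the rule were chosen with earlier results of these data known. Counting error alone is covered by floors of 3 counts. Alternatives were other scalings, filters, DESeq2 1.42.0, left-out libraries, blocks and covariates. Promoters came from RefSeq, with 10289 of 12834 tested genes matched by gene ID.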

Additional observations from a re-analysis of the deposited data

Results flagged for a closer look

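Among the genes named by the rule and reported here, those whose difference between LT-HSC and MPP itself differed between mutants and controls (the interaction over 12 libraries, edgeR's quasi-likelihood test) were Lyz2, Ms4a6c, Id2 and Hmga2. The log2 change of the difference, mutant minus control, was 2.07 for Lyz2 (SE 0.23, adjusted p = 0.00741) and 3.42 for Ms4a6c, another monocyte gene, which had 9.84 ± 7.13 CPM in mutant LT-HSC and 6.06 ± 2.84 CPM in mutant MPP, against 9.02 ± 1.42 CPM in control LT-HSC and 60.3 ± 14.6 CPM in control MPP. It was 1.74 for Id2, an inhibitor of basic helix-loop-helix factors, with 21.1 ± 4.01 CPM in mutant LT-HSC and 23.4 ± 1.26 CPM in mutant MPP, against 32.5 ± 8.66 CPM in control LT-HSC and 120.5 ± 13.9 CPM in control MPP. It was 1.13 for Hmga2, with 112 ± 7.75 CPM in mutant LT-HSC and 86.9 ± 12.7 CPM in mutant MPP, against 165 ± 9.5 CPM in control LT-HSC and 283 ± 25.8 CPM in control MPP.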

How the results depend on the processing

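Of 20 alternatives, those that moved the count of 4942 called genes by over 1.5 times were the libraries with vav-cre alone, where 907 genes were called (517 higher, 390 lower) with 1 MPP library assumed to vary like the LT-HSC libraries, and the hepatoblast sum as a covariate, where 1327 were (832 higher, 495 lower). Leaving out each control library in turn gave 3410 to 4873 called genes, 1802 to 2546 higher and 1608 to 2327 lower. Upper-quartile scaling gave 2800 higher and 2060 lower, and DESeq2 gave 2447 higher and 2597 lower. The 223 genes that the naming rule left kept their sign in each alternative that tested them, except that under the hepatoblast covariate Apoa2 was at -0.40 and Rbp4 at -0.19, and that Setdb1 was at 0.03 in libraries with vav-cre alone. The replicate block by the number in the titles gave 4881 called genes; same-numbered libraries had r of 0.051, -0.227 and 0.155, so the numbers were not taken to pair them. A block by the number in the submitters' table names gave 5499. By that number LT-HSC control 1 goes with MPP control 2 (r of 0.19) and LT-HSC control 2 with MPP control 3 (0.077). Whether those libraries are paired is not known. The count of 50 genes whose cell type effect differed between mutants and controls was 87 with no filter on low counts, 341 with DESeq2, 24 with the replicate block, and 1 to 885 when single libraries were left out; the cause was not tested. Genes of a few counts have wide errors at this depth.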

Other observations

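Of 21 tested p53 targets, 6 were higher (28.6%) and 2 lower (9.52%) in LT-HSC, against 20.5% and 18% of all genes. Without LT-HSC control 3 or MPP control 1, 1 was lower. Sesn1, a stress-induced inhibitor of growth signalling, had 415, 408 and 387 CPM in LT-HSC against 205, 231 and 259.6 CPM in MPP (log2 fold change 0.80, SE 0.0978, adjusted p = 0.000205), and Pmaip1, encoding the death protein NOXA, was lower (3.68, 2.73 and 7.31 CPM in LT-HSC against 14.8, 16.5 and 12.6 CPM in MPP). Of 26 immediate early and heat shock genes, 4 were higher (15.4%) and 6 lower (23.1%), against 20.5% and 18% of all genes, and 1 was higher without LT-HSC control 1 or 2, 2 without MPP control 1 and 0 without MPP control 2. Fos had 0.34, 2.57 and 1.85 CPM in LT-HSC against 8.33, 12.1 and 8.73 CPM in MPP, while Jun, its partner, was higher (47, 43.8 and 44.6 CPM in LT-HSC against 26.5, 31.5 and 39.3 CPM in MPP).

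Of 30 genes of cholesterol and fatty acid synthesis, 5 were higher (16.7%) and 9 lower (30%), against 20.5% and 18% of all genes. The desaturase genes Fads1 (196, 215 and 192 CPM in LT-HSC against 90.3, 103 and 116 CPM in MPP) and Fads2 (0.74) were higher. Of 41 tested clustered histone genes, 11 were lower (26.8%) and 1 was higher (2.44%), against 18% and 20.5% of all genes. The lower ones were led by Hist1h1b (40.6, 39.8 and 38.8 CPM in LT-HSC against 75.3, 68.9 and 67.7 CPM in MPP). Copies of histone genes are alike, and reads could be divided among them. Leaving out LT-HSC control 1, LT-HSC control 2, MPP control 2 or MPP control 3 left 7, 6, 3 and 4 lower, and the higher one was not called without any 1 of the 6 libraries.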
